A study of Homo sapiens with 6 samples.

Results

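The D and E cyclins and the inhibitors of their kinases were followed as cells of WA09, a long-established human pluripotent line, were turned into nascent mesoderm and smooth muscle cells. The set is a list of 10 genes fixed by name: the D cyclins CCND1, CCND2 and CCND3, the E cyclins CCNE1 and CCNE2, and the inhibitors CDKN1A, CDKN1B, CDKN2A, CDKN2B and CDKN2C. Of these, 9 were measured, each by 1 probe set of its own, among 18417 genes in all. CDKN2C had no probe set under its name in the annotation used and was not analysed here.

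Total RNA of each sample was hybridised to Affymetrix whole-transcript arrays, 1 array per sample, with 2 arrays in each of 3 groups. The undifferentiated cells (hESC) were kept in StemPro defined medium. The ISL1-positive nascent mesoderm cells (INM) had received the growth factors BMP4, given at 50 ng/ml, and Wnt3a, given at 25 ng/ml, over 4 days, and the smooth muscle cells (SMC) the same factors over 21 days. All groups came from this single line, and the labels do not state whether the arrays of a group represent different cultures. The p-values therefore reflect spread among these arrays alone, which may be technical. Values are log2 RMA signals, so a difference of 1 is a 2-fold change.

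Passage through G1, the phase before DNA synthesis, is driven by cyclin D bound to CDK4 or CDK6 and then by cyclin E bound to CDK2. These kinases phosphorylate the retinoblastoma protein and its relatives, which releases E2F factors to switch on replication genes. INK4 proteins (CDKN2A, CDKN2B, CDKN2C) block CDK4 and CDK6, whereas CIP/KIP proteins (CDKN1A, CDKN1B) bind cyclin-CDK complexes more broadly. Human embryonic stem cells are known for a short G1 phase, and the INK4 genes are known targets of Polycomb silencing.

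Markers were first set against the labels. Of 7 measured pluripotency markers, 6 fell from hESC to INM and 7 from hESC to SMC, and 9 of 9 mesoderm markers rose in INM. ISL1 stood at 5.54 and 5.28 on the hESC arrays, 9.46 and 9.55 on the INM arrays (replicate 1, then 2), and 6.41 and 6.31 on the SMC arrays. Of 9 smooth muscle markers 8 were higher in SMC than in hESC, but MYH11, the smooth muscle myosin, was not raised, at 5.59 and 5.43 in SMC against 5.77 and 5.51 in hESC (adjusted p = 0.507). All 7 fibroblast markers were higher in SMC than in hESC, as were 3 of 7 endothelial markers (PECAM1, CDH5 and ERG). Of 5 trophoblast markers, TFAP2A, GATA3 and KRT7 were higher in INM than in hESC, and the mean log2 level of the 5 was 8.85 in INM replicate 1 and 7.52 in INM replicate 2. The INM arrays stood apart from each other: 700 genes lay over 1 log2 unit apart between them, against 16 between the hESC arrays and 11 between the SMC arrays.

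**Figure D1:**
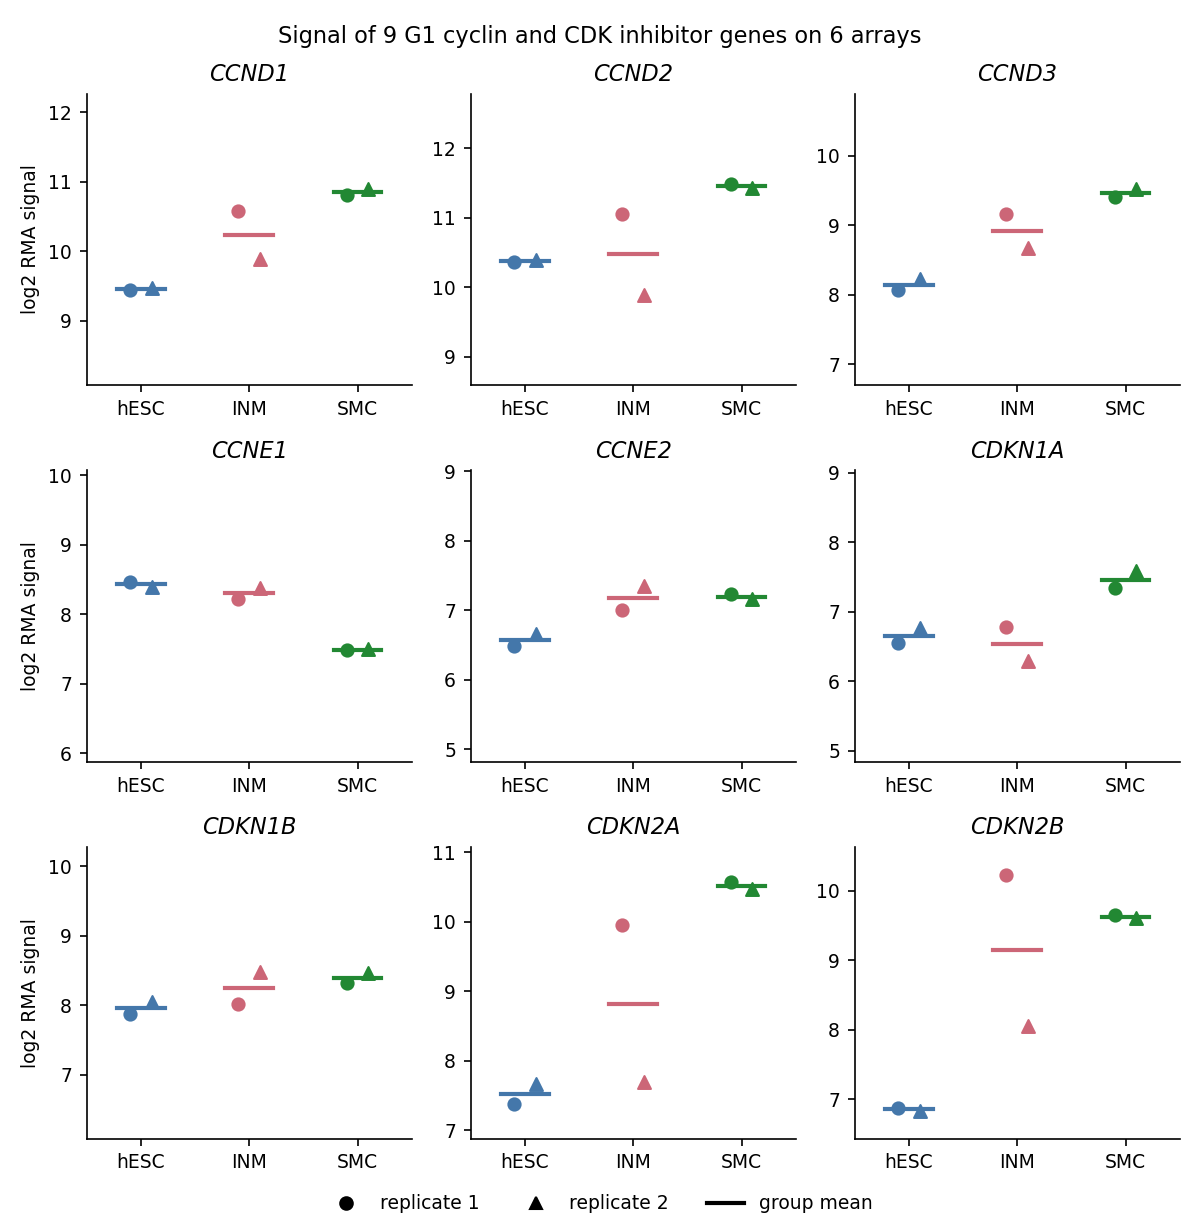
Log2 RMA signal (y axis, each panel spanning the same range) of the 9 measured genes in hESC, INM and SMC (x axis), with circles for replicate 1, triangles for replicate 2 and bars for group means. The hESC pairs lie at most 0.28 apart and the SMC pairs at most 0.24, whereas the INM pair lies 2.26 apart for CDKN2A and 2.18 apart for CDKN2B.

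From hESC to SMC, 7 of the 9 genes rose and CCNE1 fell, while over all genes tested 19.7% were called higher and 17.6% lower (limma, Benjamini-Hochberg adjusted p under 0.05). The median change of the 9 genes was 1.08 on the log2 scale, and that of all genes was -0.05. From hESC to INM, 4 of the 9 rose and none fell (4 and 0 at an unadjusted p under 0.05), against 18.9% of all genes called higher and 14.8% lower. From INM to SMC, CDKN1A rose and CCNE1 fell and the other 7 were not called, which is close to the share among all genes, at 9.94% higher and 11.1% lower. The comparisons share arrays with each other, so their changes are not independent. A total RNA signal cannot tell fewer cells expressing a gene from less RNA per cell.

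CCND1 encodes cyclin D1, which couples growth factor and Wnt signals to CDK4 and CDK6. Its signal was 9.44 and 9.47 on the hESC arrays, 10.59 and 9.89 on the INM arrays, and 10.81 and 10.90 on the SMC arrays. The groups did not overlap, and they ranked hESC, INM, SMC in rising order. CCND1 was 2.63-fold higher in SMC than in hESC, a change of 1.40 on the log2 scale (SE 0.22, adjusted p = 0.00342). The rise from hESC to INM was 0.78 (SE 0.22, adjusted p = 0.0359), and the step from INM to SMC did not pass, at 0.62 (SE 0.22, adjusted p = 0.0992).

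CCND3, the most widely expressed D cyclin gene, followed nearly the same course. It stood at 8.07 and 8.22 on the hESC arrays, 9.16 and 8.68 on the INM arrays, and 9.41 and 9.52 on the SMC arrays, again without overlap. It rose by 0.77 (SE 0.18, adjusted p = 0.0177) from hESC to INM and by 1.32 (SE 0.18, adjusted p = 0.00178) from hESC to SMC, 2.49-fold in all. The step from INM to SMC was 0.55 (SE 0.18, adjusted p = 0.0750). After each gene was centred on its own mean, CCND1 and CCND3 differed by a root mean square of 0.08 over the 6 arrays, the smallest distance among the 36 pairs of measured members.

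CCND2 encodes the third D cyclin, which is abundant in several progenitor cells. It measured 10.36 and 10.40 on the hESC arrays, 11.06 and 9.90 on the INM arrays, and 11.48 and 11.43 on the SMC arrays. The INM arrays lay on either side of the hESC pair, so hESC and INM overlapped and could not be ordered (change 0.10, SE 0.34, adjusted p = 0.846). CCND2 was 2.11-fold higher in SMC than in hESC, at 1.08 (SE 0.34, adjusted p = 0.0455), and the step from INM to SMC missed the threshold at 0.98 (SE 0.34, adjusted p = 0.0882).

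Some D cyclin calls were lost in alternative fits. A fit that leaves a group with a single array takes its spread from the other groups alone. The INM change of CCND1 was 0.77 without hESC replicate 1 and 0.79 without hESC replicate 2, against 0.78 with all arrays. CCND1 and CCND3 were higher in SMC than in hESC whichever array was left out. Their INM calls ended without hESC replicate 1 (adjusted p = 0.156 and 0.114) or hESC replicate 2 (0.135 and 0.0686). That of CCND1 also ended without either SMC replicate 1 or SMC replicate 2 (0.0768 in both) and with median centring (0.0517) or quantile normalization (0.0622). Its INM change was 0.43 without INM replicate 1 and 1.13 without INM replicate 2. The SMC call of CCND2 ended with median centring (0.0526), quantile normalization (0.0574) or all probe sets tested (0.0662). The change of CCND2 from hESC to INM was -0.48 without INM replicate 1 and 0.68 without INM replicate 2.

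Cyclin E binds CDK2 at the boundary with DNA synthesis, and its 2 genes moved in opposite directions. CCNE1 read 8.46 and 8.40 on the hESC arrays, 8.21 and 8.38 on the INM arrays, and 7.48 and 7.49 on the SMC arrays. Both SMC arrays lay below all 4 others. CCNE1 fell by 0.94 (SE 0.12, adjusted p = 0.00124) from hESC to SMC and by 0.81 (SE 0.12, adjusted p = 0.00483) from INM to SMC, whereas hESC and INM did not differ beyond the test (-0.13, SE 0.12, adjusted p = 0.425). The SMC to hESC difference was called with any single array left out. The fall from INM lost its call without SMC replicate 1 (adjusted p = 0.0546) or SMC replicate 2 (adjusted p = 0.0549).

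CCNE2, the other E cyclin gene and a known E2F target, stood at 6.49 and 6.66 on the hESC arrays, 7.01 and 7.35 on the INM arrays, and 7.24 and 7.16 on the SMC arrays. Both derivatives lay above hESC, and INM and SMC overlapped. The rise was 0.60 (SE 0.15, adjusted p = 0.0232) to INM and 0.63 (SE 0.15, adjusted p = 0.0178) to SMC, 1.54-fold, with 0.02 (SE 0.15, adjusted p = 0.939) between the derivatives. The INM call ended without hESC replicate 1 (adjusted p = 0.139), hESC replicate 2 (0.0684) or either SMC replicate 1 or SMC replicate 2 (0.0569 in both).

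The promoter of CCNE1, the only measured member that fell, is shown for its GC boxes, the GGGCGG motif bound by Sp1-like factors. The sequence is from RefSeq (GRCh38.p14, chr19:29811741-29811990, plus strand), covers the 250 bases before the annotated start and has the 7 GC boxes on either strand in capitals.
CCNE1: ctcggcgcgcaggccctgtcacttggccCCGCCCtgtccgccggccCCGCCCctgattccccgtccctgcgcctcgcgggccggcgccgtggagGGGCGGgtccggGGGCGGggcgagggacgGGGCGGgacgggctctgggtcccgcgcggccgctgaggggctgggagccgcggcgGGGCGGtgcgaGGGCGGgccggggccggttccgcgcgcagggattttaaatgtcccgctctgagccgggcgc
Its GC content is 81.2%. At least 1 GC box occurs in 42.6% of the 35116 promoter windows of this length in the same table. Windows of members that rose also held GC boxes, with 0, 2 and 5 in those of CCND3 and 4 in that of CDKN1A. A relation of GC boxes to the fall of CCNE1 was not tested. Windows of 7 of the 10 listed genes were examined, and none of CCND1, CCND2 or CCNE2. The word search therefore does not cover CCNE2, which is named above as a known E2F target. A search of both strands for E2F words (TTTCCCGC, TTTCGCGC, TTTGCCGC or TTTGGCGC) and for TCF/LEF words (CTTTGAA or CTTTGAT) found neither in the 12 windows of those 7 genes. They occur in 2.79% and 5.94% of all windows. Only exact matches to these words were counted, so the search cannot show that a window, that of CCNE1 included, lacks such sites in another spelling.

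Of the CIP/KIP inhibitors, CDKN1A (p21), a classical p53 target, was higher in SMC than in both other groups. It read 6.55 and 6.77 on the hESC arrays, 6.78 and 6.29 on the INM arrays, and 7.34 and 7.59 on the SMC arrays. The SMC arrays were the highest, and hESC and INM overlapped. CDKN1A rose by 0.93 (SE 0.19, adjusted p = 0.0182) from INM to SMC and by 0.81 (SE 0.19, adjusted p = 0.0171) from hESC to SMC, 1.75-fold, and did not differ between INM and hESC beyond the test (-0.12, SE 0.19, adjusted p = 0.663). The rise from INM lost its call without SMC replicate 1 (adjusted p = 0.0779) or SMC replicate 2 (adjusted p = 0.139).

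CDKN1B (p27), which restrains CDK2 and is controlled largely through protein breakdown, was not called in any comparison. Its values were 7.87 and 8.05 on the hESC arrays, 8.01 and 8.48 on the INM arrays, and 8.32 and 8.46 on the SMC arrays. Only hESC and SMC were free of overlap, with a change of 0.43 (SE 0.18, adjusted p = 0.101). The changes were 0.29 (SE 0.18, adjusted p = 0.254) from hESC to INM and 0.15 (SE 0.18, adjusted p = 0.614) from INM to SMC. CDKN1B was called higher in SMC than in hESC when the 4 arrays of these groups were fitted alone (adjusted p = 0.0145). Leaving out either INM array gave that same result, because a group of a single array adds no spread to the fit. The change from hESC to INM was 0.52 without INM replicate 1 and 0.05 without INM replicate 2.

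The INK4 genes showed the largest changes of the set. CDKN2A encodes p16, and from a separate start also ARF, a protein that stabilises p53. The probe set is annotated to transcripts of both products, which cannot be told apart here. CDKN2A stood at 7.38 and 7.66 on the hESC arrays, 9.94 and 7.69 on the INM arrays, and 10.58 and 10.46 on the SMC arrays. INM replicate 1 lay near the SMC arrays, and INM replicate 2 was level with hESC replicate 2. CDKN2A was 8.02-fold higher in SMC than in hESC, at 3.003 (SE 0.64, adjusted p = 0.0110), a change at least matched in size by 1.80% of all genes. The groups did not overlap, but the steps to and from INM were not called, with a change of 1.30 (SE 0.64, adjusted p = 0.164) up to INM and 1.70 (SE 0.64, adjusted p = 0.110) from there to SMC.

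CDKN2B encodes p15, an INK4 protein known to be induced by TGF-beta. It read 6.88 and 6.83 on the hESC arrays, 10.23 and 8.05 on the INM arrays, and 9.65 and 9.61 on the SMC arrays. Both INM arrays lay above both hESC arrays, and they enclosed the SMC pair. CDKN2B rose 6.85-fold from hESC to SMC, at 2.78 (SE 0.61, adjusted p = 0.0126), and 4.88-fold from hESC to INM, at 2.29 (SE 0.61, adjusted p = 0.0294). INM and SMC overlapped (0.49, SE 0.61, adjusted p = 0.626). The coding parts of CDKN2A and CDKN2B contain a closely similar stretch, so how signal is split between their probe sets is uncertain.

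The INM values of both INK4 genes depended on the array. Without INM replicate 1 the INM change was 0.17 for CDKN2A and 1.20 for CDKN2B. Without INM replicate 2 it was 2.43 and 3.38. The step of CDKN2B from INM to SMC was 1.58 without INM replicate 1 and -0.60 without INM replicate 2. That of CDKN2A was 2.83 and 0.57. With a single INM array left, the test takes no account of the spread between the INM arrays, so no p-value is given for these changes. With all INM arrays kept, the INM call of CDKN2B ended without hESC replicate 1 (adjusted p = 0.135), hESC replicate 2 (0.127) or either SMC replicate 1 or SMC replicate 2 (0.0662 in both).

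Against hESC, the SMC calls of 5 members also ended when hESC replicate 1, hESC replicate 2, SMC replicate 1 or SMC replicate 2 was left out. Over those 4 fits the adjusted p ran from 0.157 to 0.178 for CCND2, from 0.0556 to 0.115 for CCNE2, from 0.0556 to 0.119 for CDKN1A, from 0.0605 to 0.0789 for CDKN2A and from 0.0747 to 0.0767 for CDKN2B. Their changes kept their sign, with CDKN2A between 2.86 and 3.14 and CDKN2B between 2.75 and 2.80. In a fit of the 4 hESC and SMC arrays alone, all 9 members were called, 8 higher and CCNE1 lower, against 25.1% and 24.8% of all genes. There CDKN2A had an adjusted p of 1.24e-06 and CDKN2B of 5.95e-07.

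**Figure D2:**
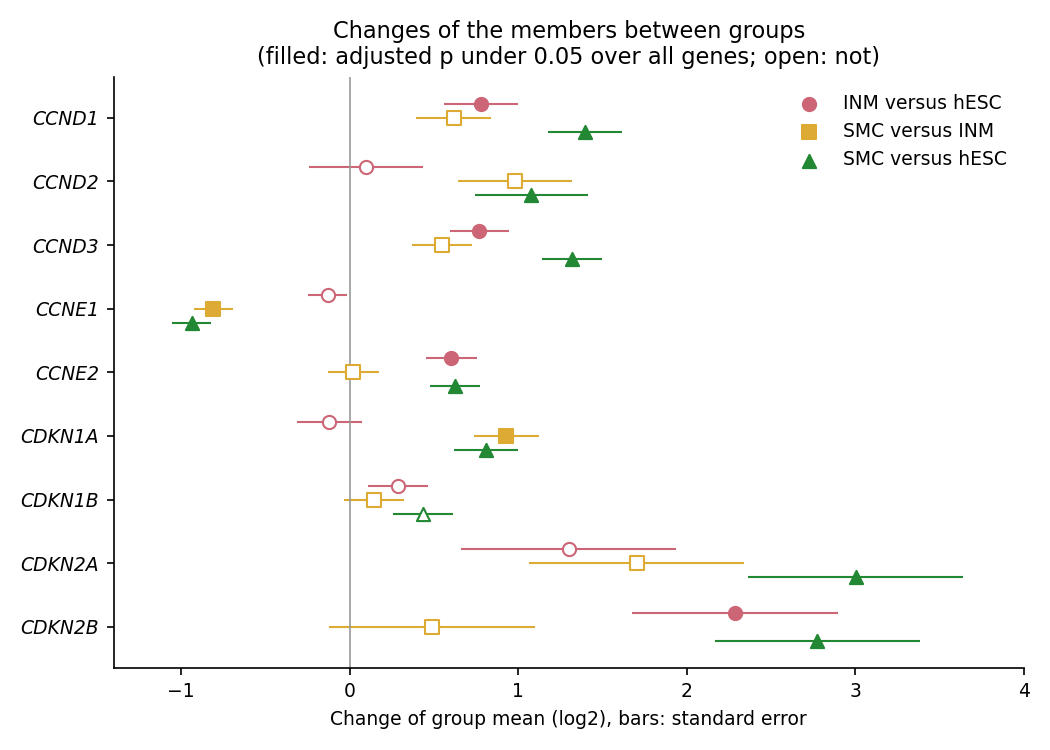
Change of the group mean on the log2 scale (x axis) for each gene (y axis) in INM versus hESC (circles), SMC versus INM (squares) and SMC versus hESC (triangles), with bars for the standard error. Filled symbols have an adjusted p under 0.05 over 18417 genes; CDKN2A and CDKN2B lie farthest to the right, at 3.003 and 2.78 in SMC versus hESC, and CCNE1 is the only gene with filled symbols to the left of 0.

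CDKN2A and CDKN2B are neighbours on chromosome 9, and their upstream sequences are shown because these genes changed most. The windows are from RefSeq (GRCh38.p14, minus strand), each 250 bases before an annotated start, with GC boxes on either strand in capitals. The CDKN2A windows precede the start used for ARF (chr9:21995325-21995574) and the start used for p16 (chr9:21974858-21975107), and the CDKN2B window is chr9:22009306-22009555.
CDKN2A, ARF start: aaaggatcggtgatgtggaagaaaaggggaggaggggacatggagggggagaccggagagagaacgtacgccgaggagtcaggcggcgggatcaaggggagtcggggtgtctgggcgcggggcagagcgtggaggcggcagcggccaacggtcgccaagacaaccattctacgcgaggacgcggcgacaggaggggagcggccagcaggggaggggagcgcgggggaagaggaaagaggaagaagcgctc
CDKN2A, p16 start: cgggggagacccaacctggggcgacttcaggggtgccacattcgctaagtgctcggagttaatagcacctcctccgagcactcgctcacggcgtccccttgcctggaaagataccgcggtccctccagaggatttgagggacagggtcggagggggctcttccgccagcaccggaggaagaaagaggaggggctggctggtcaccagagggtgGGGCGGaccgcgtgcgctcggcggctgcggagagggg
CDKN2B: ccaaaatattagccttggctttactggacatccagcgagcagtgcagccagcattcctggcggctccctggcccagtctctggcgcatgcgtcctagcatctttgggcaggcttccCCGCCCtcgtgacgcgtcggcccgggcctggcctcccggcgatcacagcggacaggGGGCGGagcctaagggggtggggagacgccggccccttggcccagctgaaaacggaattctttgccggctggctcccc
The ARF window contains 0 GC boxes, the p16 window 1 and the CDKN2B window 2, at a GC content of 66.8%, 66.8% and 66.4%. Neighbouring measured genes, looked up after the values were seen, were not called higher in SMC. MTAP, a methionine salvage enzyme, stood at 8.29 and 8.37 in hESC and 7.94 and 7.88 in SMC, a fall of 0.42 (SE 0.13, adjusted p = 0.0486). DMRTA1, on the far side, stood at 7.89 and 7.99 in hESC and 7.33 and 7.46 in SMC, with a change of -0.54 (SE 0.12, adjusted p = 0.0115). CDKN2A-AS1, an antisense transcript, changed by -0.34 (SE 0.13, adjusted p = 0.0747). ELAVL2, a neuronal RNA-binding protein gene beyond DMRTA1, changed by -2.08 (SE 0.22, adjusted p = 6.91e-04), the largest of these changes.

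The INM arrays differed in the members more than the arrays of the other groups did. INM replicate 1 was the higher for CCND1 (by 0.70), CCND2 (1.16), CCND3 (0.49), CDKN1A (0.49), CDKN2A (2.26) and CDKN2B (2.18). INM replicate 2 was the higher for CCNE1 (by 0.17), CCNE2 (0.34) and CDKN1B (0.47). A distance as large as that of CDKN2A was seen in 0.386% of all genes, and one as large as that of CDKN2B in 0.478%. Replication and mitosis genes ran the other way on the same arrays: INM replicate 2 was the higher in 25 of 25 E2F target genes and in 20 of 20 mitosis genes. The median of replicate 1 minus replicate 2 was -0.77 and -1.02 over those lists. Fibroblast markers had a mean log2 level of 9.76 in INM replicate 1 and 9.36 in INM replicate 2. The trophoblast markers stood farther apart, at 8.85 and 7.52. Nascent mesoderm markers ran the other way, at 9.61 in INM replicate 1 and 10.27 in INM replicate 2. The part of these differences in the members' values was not tested.

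**Figure D3:**
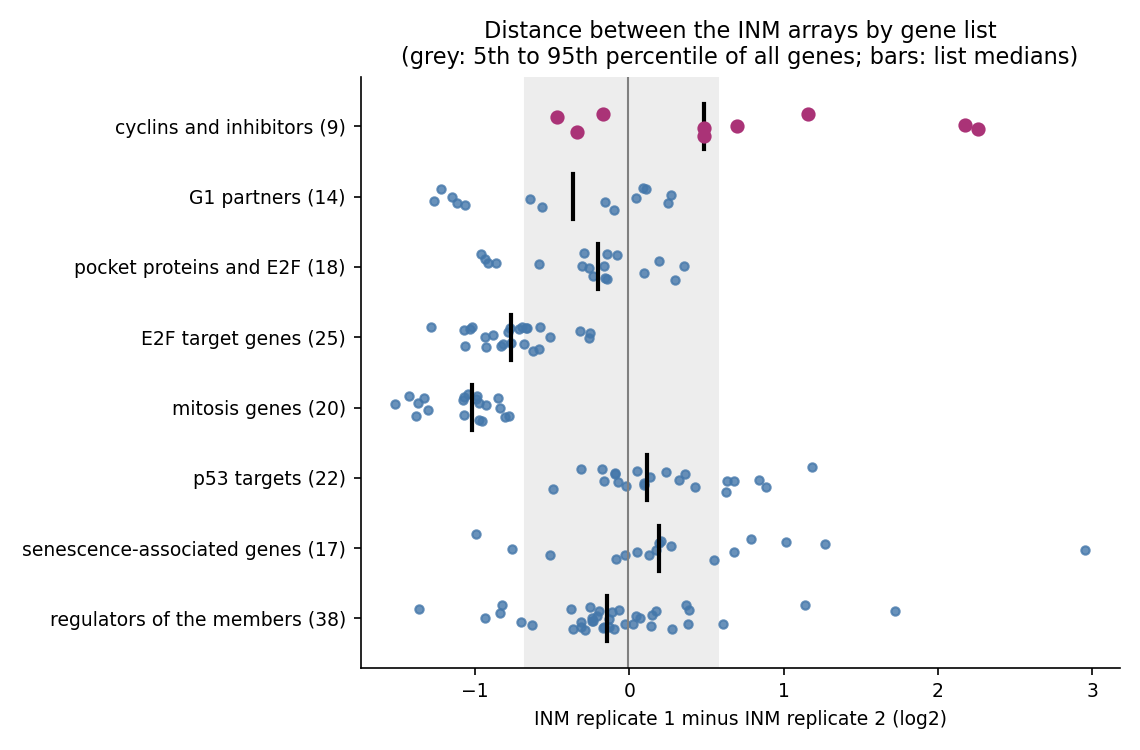
INM replicate 1 minus INM replicate 2 on the log2 scale (x axis) for the 9 cyclin and inhibitor genes (purple) and 7 lists of related genes (blue; number of genes in brackets), with black bars for medians and grey for the middle of all genes. All E2F target and mitosis genes lie to the left of 0, while 6 of the 9 members lie to the right, led by CDKN2A at 2.26 and CDKN2B at 2.18.

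The kinases that the D cyclins activate were higher in INM than in hESC. CDK6 read 8.18 and 8.18 on the hESC arrays, 10.38 and 10.28 on the INM arrays, and 9.83 and 9.74 on the SMC arrays, a rise of 2.15 (SE 0.11, adjusted p = 8.45e-05) to INM followed by a fall of 0.55 (SE 0.11, adjusted p = 0.0172). CDK4 rose by 0.95 (SE 0.11, adjusted p = 0.00136) to INM and then fell by 0.40 (SE 0.11, adjusted p = 0.0447). Both falls lost their call without SMC replicate 1 (adjusted p = 0.0933 for CDK6 and 0.214 for CDK4) or SMC replicate 2 (0.137 and 0.193), and that of CDK4 also without hESC replicate 1 or hESC replicate 2 (0.0885 in both) or INM replicate 2 (0.0690). CDK2, the partner of cyclin E, rose by 0.50 (SE 0.13, adjusted p = 0.0265) to INM, a call that ended without hESC replicate 1 (0.142), hESC replicate 2 (0.0864), or either SMC replicate 1 or SMC replicate 2 (0.0652 in both). In the list of 14 kinases, other cyclins and CDC25 phosphatases, CDK4, CDK6 and CDK2 rose and CCNA1 fell from hESC to INM, with a median of 0.01. Over all genes, 18.9% were called higher and 14.8% lower there. From hESC to SMC, CDK4 and CDK6 rose and CDC25A, CCNA1 and MNAT1 fell, with a median of -0.49, against 19.7% of all genes called higher and 17.6% lower. From INM to SMC, CDK4, CDK6, MNAT1 and CDC25A fell, against 11.1% of all genes called lower. In that step 10 of the 14 were called lower without INM replicate 1, whereas limma called 0 without SMC replicate 1 or SMC replicate 2 (3 and 5 lower at an unadjusted p under 0.05). The median change of the 14 from hESC to INM was 0.41 without INM replicate 1 and -0.38 without INM replicate 2. With hESC replicate 1, SMC replicate 1 or SMC replicate 2 left out, CDK4 was not called and 1 of the 14 was called higher in SMC than in hESC. CDC25A, a phosphatase that activates CDK2, was 1.77 lower on the log2 scale in SMC (-1.77, SE 0.19, adjusted p = 7.16e-04).

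Among the retinoblastoma relatives and the E2F family, calls ran both ways. Of 18 genes, 5 rose from hESC to SMC (RB1, RBL2, E2F6, LIN37 and LIN54) and 4 fell (E2F5, E2F8, TFDP2 and MYBL2), with a median of -0.16, shares near those of all genes (19.7% higher and 17.6% lower). The same 5 rose from hESC to INM, where TFDP2 fell and the median was 0.00. Of all genes, 18.9% were called higher and 14.8% lower in that comparison. There 3 of the 18 were called higher without hESC replicate 1 or hESC replicate 2, the fall of TFDP2 lost its call without hESC replicate 1, SMC replicate 1 or SMC replicate 2, and 4 were called lower without INM replicate 2. In SMC versus hESC, 3 were called higher without hESC replicate 1, SMC replicate 1 or SMC replicate 2, and 0 to 2 were called lower with an hESC or SMC array left out. RBL2, a retinoblastoma relative of resting cells, rose by 0.98 (SE 0.12, adjusted p = 0.00136) in SMC, and MYBL2, an activator of mitosis genes, changed by -1.32 (SE 0.26, adjusted p = 0.00845), a call that ended without hESC replicate 1 (0.0603), hESC replicate 2 (0.0568), SMC replicate 1 (0.0627) or SMC replicate 2 (0.0534). The remaining CDK inhibitor genes CDKN1C, CDKN2D and CDKN3 were not called by limma in any comparison, and 0 of the 3 had an unadjusted p under 0.05. Their changes from hESC to SMC were -0.20, -0.31 and -0.55. Without INM replicate 1 or without INM replicate 2, 1 of these 3 was called in each comparison.

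Many E2F target genes were lower in SMC than in hESC. In that comparison 15 of 25 fell and 10 did not pass, with a median of -1.05, led by MCM6 at -1.89 (SE 0.28), MCM10 at -1.63 (SE 0.32) and MCM3 at -1.53 (SE 0.27), which encode parts of the replication machinery. Of 20 mitosis genes 10 fell, with a median of -0.99, led by CENPF at -1.68 (SE 0.29). Over all genes, 17.6% were called lower in SMC than in hESC, and 11.1% lower in SMC than in INM. These shares also moved with the array left out. With hESC replicate 1, hESC replicate 2, SMC replicate 1 or SMC replicate 2 left out, 5 to 7 of the E2F targets and 1 or 2 of the mitosis genes were called lower; MCM6, MCM3 and CENPF were among them each time, and MCM10 without SMC replicate 2 alone. From hESC to INM, POLE and SLBP rose among the E2F targets and BUB1B fell among the mitosis genes, with medians of -0.27 and -0.29. Of all genes, 18.9% were called higher and 14.8% lower there. The calls of BUB1B and POLE ended when any single hESC or SMC array was left out. The medians of the E2F targets and mitosis genes turned on the INM array. They were 0.13 and 0.36 without INM replicate 1, and -0.66 and -0.88 without INM replicate 2. From INM to SMC 11 E2F targets fell, 24 without INM replicate 1, 12 without INM replicate 2, 3 without hESC replicate 1 or hESC replicate 2, and 1 without SMC replicate 1 or SMC replicate 2, while CENPF and KIF23 were the mitosis genes called lower. Of those 20 mitosis genes, 20 were called lower without INM replicate 1 and 3 without INM replicate 2. Limma called 0 of them without hESC replicate 1 or hESC replicate 2 (6 lower at an unadjusted p under 0.05) and 0 without SMC replicate 1 or SMC replicate 2 (2 lower). In a fit of the 4 hESC and SMC arrays alone, 21 E2F targets and 20 mitosis genes were called lower in SMC, against 24.8% of all genes.

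Among 22 measured p53 targets other than CDKN1A, 8 rose and 4 fell from hESC to SMC, with a median of 0.30. Over all genes, 19.7% were called higher and 17.6% lower in that comparison. The shares were 18.9% and 14.8% from hESC to INM, and 9.94% and 11.1% from INM to SMC. PLK2, a stress-induced kinase, rose by 3.13 (SE 0.15, adjusted p = 4.03e-05), and PMAIP1, which promotes cell death, fell by 3.19 (SE 0.27, adjusted p = 2.92e-04). From INM to SMC, where CDKN1A rose, TNFRSF10B, SESN2, PLK2 and POLH rose and AEN fell, with a median of -0.04. In that step 4 were called lower without INM replicate 2, and limma called 0 in either direction without SMC replicate 1 or SMC replicate 2 (4 higher at an unadjusted p under 0.05 in both, 2 and 1 lower). From hESC to INM, 8 of the 22 rose and PMAIP1, RRM2B and DDB2 fell, with 5 called higher without hESC replicate 1 or hESC replicate 2. Of 17 senescence-associated genes, many of which are also matrix or cytokine genes of stromal cells, 10 rose and LMNB1 and HMGA1 fell from hESC to SMC, with a median of 1.98. LMNB1, a nuclear lamina gene, changed by -1.08 (SE 0.30, adjusted p = 0.0290), a call that ended without hESC replicate 1 (0.116), hESC replicate 2 (0.136), SMC replicate 1 (0.134) or SMC replicate 2 (0.123). MMP1, a collagenase, changed by 4.89 (SE 0.19, adjusted p = 2.39e-05). From hESC to INM 8 of the 17 rose and CXCL8 and HMGA1 fell. Without hESC replicate 1, 5 were called higher and 0 lower, both falls also lost their call without SMC replicate 1 or SMC replicate 2, and 1 was called lower without hESC replicate 2.

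In the list of 38 measured regulators of the members, 13 rose from hESC to INM and MYCL fell, against 18.9% of all genes called higher and 14.8% lower. From hESC to SMC 9 rose and 9 fell, with a median of 0.00, against 19.7% of all genes called higher and 17.6% lower. In INM versus hESC, 8 were called higher without hESC replicate 1, and 6 lower without INM replicate 2, and 5 or 6 were called lower in SMC than in hESC with an hESC or SMC array left out. From INM to SMC 10 fell, 17 without INM replicate 1, 6 without SMC replicate 1 and 5 without SMC replicate 2. With all arrays kept, FBXO4, MYC and MXD1 rose from INM to SMC, while over all genes 9.94% were called higher and 11.1% lower. These rises also lost their calls in some fits with an array left out. LEF1, a nuclear partner of beta-catenin that acts on the CCND1 gene, rose by 5.24 (SE 0.14, adjusted p = 8.39e-06) from hESC to INM. LIN28A and LIN28B, which block the let-7 microRNAs, fell by 4.74 (SE 0.40, adjusted p = 6.62e-04) and 2.87 (SE 0.27, adjusted p = 0.00110) from INM to SMC. Of the genes picked for their role after their values were seen, EZH2, the Polycomb methyltransferase, changed by -0.83 (SE 0.15, adjusted p = 0.0123) in that step. From hESC to INM EZH2 was not called (-0.34, SE 0.15, adjusted p = 0.137). KDM6B, which removes the mark that EZH2 lays down, rose by 1.74 (SE 0.11, adjusted p = 1.79e-04) from hESC to INM. From INM to SMC KDM6B changed by -0.38 (SE 0.11, adjusted p = 0.0611). The listed Polycomb genes SUZ12 and CBX7 were not called from INM to SMC (adjusted p = 0.0855 and 0.231). The part of these genes in the members' values was not tested. SKP2, which directs p27 to breakdown, rose by 0.56 (SE 0.12, adjusted p = 0.0126) to INM and fell by 0.75 (SE 0.12, adjusted p = 0.00694) to SMC. Without SMC replicate 1 or SMC replicate 2, the INM to SMC calls of EZH2 (adjusted p = 0.0774 and 0.106) and SKP2 (0.0712 and 0.0641) ended, as did the INM call of SKP2 without hESC replicate 1 (0.0865) or hESC replicate 2 (0.0529).

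**Figure D4:**
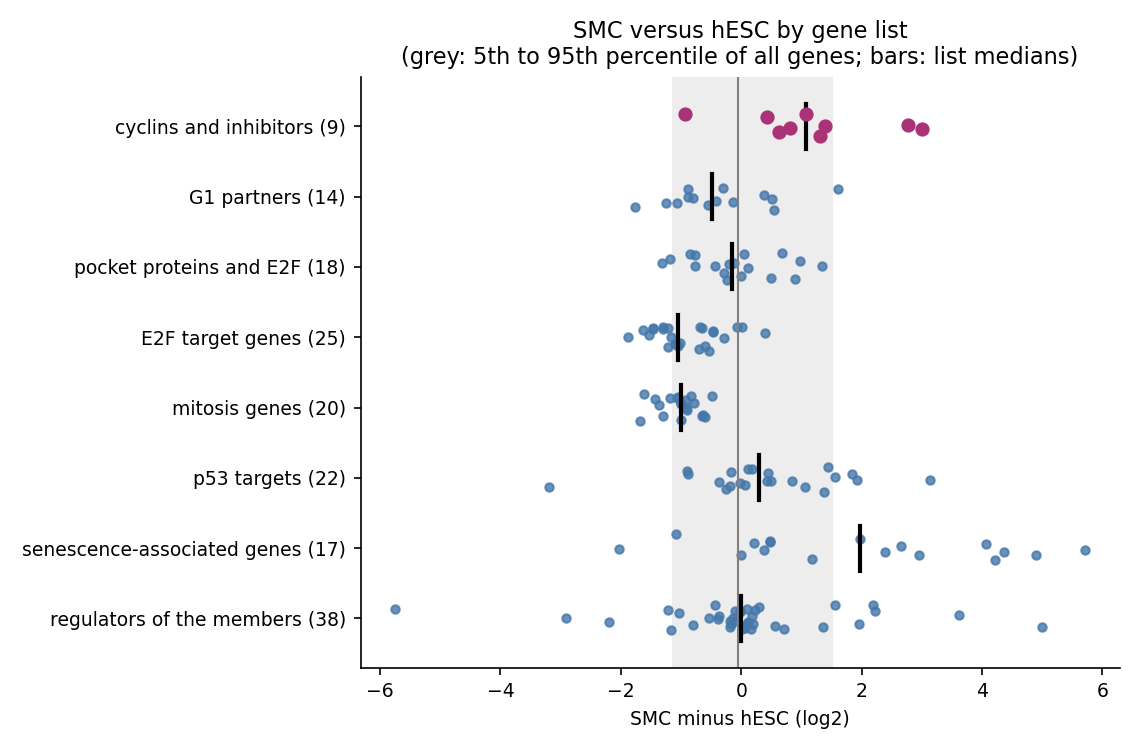
SMC minus hESC on the log2 scale (x axis) for the 9 cyclin and inhibitor genes (purple) and 7 lists of related genes (blue; number of genes in brackets), with black bars for medians and grey for the middle of all genes. The members' median is 1.08, while the medians of E2F targets and mitosis genes are -1.05 and -0.99.

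For members whose group means spanned at least 1 log2 unit, the nearest genes were picked from all measured genes. They are the smallest of many distances, so their closeness follows from that choice. By root mean square distance between centred profiles over the 6 arrays, the nearest genes to CCND1 were GSTK1 (0.07) and CCND3 (0.08), and the nearest to CCND3 were NIPAL2 (0.06) and LIN37 (0.07). RPS6KA2 (0.10) and ELAPOR1 (0.11) lay nearest to CCND2. CDKN2A was nearest to S100A16 (0.18) and AHR (0.24), and CDKN2B to CSRP1 (0.18) and SOX5 (0.20).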

How the data were processed

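The authors deposited log2 expression values of 33297 probe sets on 6 arrays, and RMA and limma are named, without versions, in the submitters' processing notes. RMA settings and the array's genome build were not given in the sources used here. Values ran from 1.36 to 14.09, and array medians over the named genes from 7.10 to 7.19. Probe sets were named through the platform annotation, with symbols updated to RefSeq (GRCh38.p14) for 19429 of 19460 probe sets with 1 symbol; 1754 had several symbols and 12083 none. Per gene, the probe set with the highest mean was kept. All 6 arrays entered 1 linear model with a mean per group (limma 3.58.1, lmFit and eBayes, under R 4.3.3; 3 residual and 3.56 prior degrees of freedom), with two-sided tests adjusted by Benjamini-Hochberg over 18417 genes. With 2 arrays a side, the smallest p of an exact permutation test is 0.333. All member signals, at 6.29 or more, lay above the array medians of unnamed probe sets (5.04 to 5.65). No measure of signal over background was at hand.

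The members and lists were chosen with earlier results of these data known. Named list genes were drawn from the called genes with the largest changes, up to 3 per list and comparison. Others were drawn from lists where 5 or fewer called genes moved in a direction. Not every gene picked this way is named. EZH2, KDM6B and SKP2 were added after their values were seen. Alternatives were median centring, quantile normalization, a low-signal filter, all probe sets tested, the mean over a gene's probe sets, 3 other estimates of the spread, a replicate block and leaving out each array. List counts and list genes with an array left out were added after seeing the data.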

Additional observations from a re-analysis of the deposited data

How the results depend on the processing

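The number of arrays limits every call. The INM arrays spread most. Of the member changes recomputed over the alternatives, 335 kept their direction and their status as called or not called. A further 46 lost their call, 16 gained one and 8 changed sign. The 335 include changes that were not called in the main fit either. Changes of sign were counted as such whether or not the call also changed. These counts include repeats, as leaving out an array of the third group gives the same result as the 4 arrays of both groups. A group left with a single array adds nothing to the estimate of spread, so calls from such fits rest on the spread of the other groups. With 1 array left out, INM versus hESC gave 2939 to 7520 called genes (6217 with all arrays) and 0 to 6 called members (4). SMC versus INM gave 1134 to 6143 genes (3874) and 0 to 7 members (2), and SMC versus hESC 3803 to 9200 genes (6859) and 3 to 9 members (8). With only the 4 arrays of both groups, 1 member was called in INM versus hESC and 2541 genes in SMC versus INM. With array weights, 4 members were called in SMC versus INM. With all probe sets tested, INM versus hESC had 10688 calls.

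Sign changes came for CCND2 in INM versus hESC without INM replicate 1 (range -0.48 to 0.68), for CDKN1A there with quantile normalization (0.077) and without INM replicate 2 (range -0.36 to 0.12), and in SMC versus INM for CCNE2 with quantile normalization (-0.002) and with 1 array left out (-0.15 to 0.19), CDKN1B (-0.088 to 0.38) and CDKN2B (-0.60 to 1.58). The cause was not tested. In INM versus hESC, 56.1% of called genes were higher, 46.0% with median centring and 66.1% with quantile normalization, which moved the median of all genes from -0.03 to -0.11 and 0.13. The differences of replicate 1 and replicate 2 correlated weakly between groups (0.07, -0.12 and -0.07). With 1 such difference per group, this cannot show whether replicate numbers pair the samples. A replicate block gave 5713, 3392 and 6429 called genes and the same called members.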
